A study of Mus musculus with 15 samples.

Results

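The neutrophil genes described here were 9 of the 55849 gene rows in a TPM matrix of mouse liver: S100a8, S100a9, Ngp, Camp, Csf3r, Cxcr2, Mpo, Elane and Retnlg. They were taken by gene symbol, and all 9 were found. RNA from mouse liver was sequenced in 15 libraries, 5 labelled young control, 5 labelled aged control and 5 labelled KSL0608-Se + irradiation, which are called treated below. KSL0608-Se is known here only by its code name. The series title names photoactivatable senolysis, the killing of senescent cells by an agent switched on by light, and ageing as its subjects. The labels give no strain, sex, age in numbers, dose or light setting, and they do not state the age of the treated mice. Treatment and age therefore cannot be told apart in the comparison of treated with young, nor from the labels in that of treated with aged. No group is labelled KSL0608-Se alone or irradiation alone, so the parts of the treatment cannot be told apart. No label says that libraries came from separate animals, and the p-values below speak only to how far these libraries scatter.

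Neutrophils are short-lived white blood cells made in the bone marrow that circulate in blood and leave it for sites of infection or injury. They carry antimicrobial proteins and proteases in granules that are filled in order as the cell matures, so transcripts of early granules mark precursors and other transcripts mark the mature cell. In liver, neutrophils sit mainly in the sinusoids, the narrow vessels that they share with Kupffer cells, the resident macrophages. S100a8 and S100a9 encode the partners of calprotectin, the most abundant protein of the neutrophil cytosol, and are also made by monocytes. Retnlg encodes a resistin-like protein of mature mouse neutrophils. Csf3r encodes the receptor for the growth factor G-CSF, and Cxcr2 the receptor for neutrophil-attracting chemokines. Ngp encodes neutrophilic granule protein and Camp the antimicrobial peptide cathelicidin, both of secondary granules. Mpo encodes myeloperoxidase and Elane neutrophil elastase, both of primary granules and transcribed mainly in precursors.

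The promoters of 4 members are shown because they hold matches to the motifs of factors known to drive the neutrophil programme, and because they stand for the calprotectin pair and the primary granule pair. Each is the RefSeq sequence from 250 bases before to 50 bases after the annotated start on the gene's own strand, in build GRCm38.p6. S100a8 lies at chr3:90668821-90669120 on the plus strand and S100a9 at chr3:90695672-90695971 on the minus strand. Mpo lies at chr11:87793534-87793833 and Elane at chr10:79886062-79886361, both on the plus strand. Capitals mark matches to TATAAA (the letters of a TATA box), GAGGAAG (a PU.1-like site) or TTGCNNAA (a C/EBP-like site), searched on both strands, and in these promoters no marked matches overlap.
S100a8: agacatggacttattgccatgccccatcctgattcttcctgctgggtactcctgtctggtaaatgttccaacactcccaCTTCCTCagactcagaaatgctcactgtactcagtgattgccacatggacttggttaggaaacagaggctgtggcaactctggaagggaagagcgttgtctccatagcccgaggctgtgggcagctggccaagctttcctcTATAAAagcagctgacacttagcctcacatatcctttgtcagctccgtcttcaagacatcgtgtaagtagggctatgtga
S100a9: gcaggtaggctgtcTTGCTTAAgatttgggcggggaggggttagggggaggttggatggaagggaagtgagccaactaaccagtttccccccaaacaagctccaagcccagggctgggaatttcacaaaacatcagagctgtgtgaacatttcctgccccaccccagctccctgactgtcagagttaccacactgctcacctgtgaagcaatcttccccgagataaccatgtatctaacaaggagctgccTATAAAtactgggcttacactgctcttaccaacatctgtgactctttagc
Mpo: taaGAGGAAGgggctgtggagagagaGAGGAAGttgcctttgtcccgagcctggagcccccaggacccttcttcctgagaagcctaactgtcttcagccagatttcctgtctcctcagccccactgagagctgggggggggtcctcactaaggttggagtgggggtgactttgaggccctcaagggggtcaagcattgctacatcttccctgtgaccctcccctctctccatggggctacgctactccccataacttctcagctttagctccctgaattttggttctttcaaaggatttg
Elane: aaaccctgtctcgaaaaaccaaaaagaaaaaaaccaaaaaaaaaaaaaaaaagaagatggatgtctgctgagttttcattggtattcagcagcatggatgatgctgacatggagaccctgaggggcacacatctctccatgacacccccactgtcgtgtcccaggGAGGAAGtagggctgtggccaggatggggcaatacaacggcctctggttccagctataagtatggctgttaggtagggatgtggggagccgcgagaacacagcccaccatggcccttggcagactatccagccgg
Promoters of all 9 members were found in the table. GAGGAAG was present in 4 of the 9 (S100a8, Csf3r, Mpo and Elane), against 13.6% of 32851 RefSeq promoters of the same length. TTGCNNAA was present in 3 of the 9 (S100a9, Ngp and Retnlg), against 10.8%, and TATAAA in 2 of the 9 (S100a8 and S100a9), against 13.6%. The TATAAA of S100a8 begins 30 bases before the annotated start, and that of S100a9 begins at the annotated start itself. A match is a description of letters, and no binding was measured.

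Values are TPM, the share of a library's transcripts that a gene holds, which are scaled by transcript length, so levels can be set side by side between genes. Because TPM does not carry the number of reads, the depth behind a value is unknown, and a gene without signal is given as listed at 0. Between 17847 and 20743 genes were above 0 per library, and log2 values of libraries of the same group correlated across genes at r = 0.907 to 0.975 over 30 pairs. The hepatocyte markers were abundant in every library. Differences were tested with limma on log2(TPM + 1) over the 12168 genes averaging 1 TPM or more, and a gene was called at a Benjamini-Hochberg adjusted p under 0.05. S100a8, S100a9, Ngp, Csf3r and Retnlg passed this filter, while Camp, Cxcr2, Mpo and Elane are given from the same fit on all 27110 genes above 0 in any library. The scale of log2(TPM + 1) understates the change of genes near or under 1 TPM, which includes most members. In bulk tissue, fewer cells of a type and less RNA per cell cannot be told apart.

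The calprotectin pair was the most abundant of the members, with means over each group between 3.32 and 25.6 TPM. S100a9 was 11.80, 6.85, 9.51, 7.37 and 4.23 TPM in young libraries 1 to 5, and 9.07, 12.79, 13.55, 8.65 and 7.42 TPM in aged libraries 1 to 5. It was 5.63, 26.66, 20.22, 13.56 and 61.69 TPM in treated libraries 1 to 5. Treated 2 to 5 were above every aged library, though treated 4 and aged 3 were nearly equal, and treated 1 was below every aged library, so the groups overlapped. S100a9 averaged 7.95 ± 2.86 TPM in young (SD, n = 5), 10.3 ± 2.71 TPM in aged (SD, n = 5) and 25.6 ± 21.7 TPM in treated livers (SD, n = 5). Treated differed from aged by 0.89 ± 0.442 (SE) on the log2(TPM + 1) scale, with a limma adjusted p of 0.925. Aged differed from young by 0.37 ± 0.442 (SE, adjusted p = 1) and treated from young by 1.25 ± 0.442 (SE, adjusted p = 0.147).

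S100a8, the partner of S100a9, was 3.70, 2.65, 4.41, 5.45 and 0.41 TPM in young libraries 1 to 5 and 1.98, 4.01, 5.42, 2.93 and 4.60 TPM in aged ones. It was 3.47, 14.40, 5.42, 5.40 and 25.15 TPM in treated libraries 1 to 5. Treated 2 and treated 5 stood above all other libraries, and the other 3 treated libraries lay within or at the top of the aged range. The mean of 10.8 ± 9.09 TPM in treated (SD, n = 5) was 2.84 times the 3.79 ± 1.36 TPM of aged livers (SD, n = 5), and young livers averaged 3.32 ± 1.92 TPM (SD, n = 5). The log2 difference between treated and aged was 1.03 ± 0.476 (SE, limma adjusted p = 0.925), and none of the 3 comparisons was called. The level of S100a9 exceeded that of S100a8 in every library, with a median ratio of 2.58 for young, 2.95 for aged and 2.45 for treated libraries. That ratio ran from 1.35 to 10.3 in young livers, where young 5 held the lowest S100a8 value of all libraries.

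Retnlg, the resistin-like gene of mature neutrophils, was the only member called in any comparison. It was 0.70, 0.63, 1.83, 0.67 and 0.14 TPM in young libraries 1 to 5, and 0.74, 2.88, 2.98, 1.76 and 1.31 TPM in aged ones. It was 1.54, 3.55, 4.06, 3.31 and 4.16 TPM in treated libraries 1 to 5. Treated 2 to 5 were above every young and every aged library, while treated 1 lay below young 3. Retnlg rose from 0.794 ± 0.623 TPM in young (SD, n = 5) to 3.32 ± 1.06 TPM in treated livers (SD, n = 5), a log2 difference of 1.29 ± 0.276 (SE, limma adjusted p = 0.0177). Aged livers, at 1.93 ± 0.979 TPM (SD, n = 5), lay between them, with adjusted p = 0.406 against young and 0.925 against treated. The call of treated against young was lost without young 5 (adjusted p = 0.0509), without treated 5 (0.0529) and on all 27110 genes (0.0575).

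The receptors were expressed at low levels. Csf3r, the G-CSF receptor, ranged from 0.78 to 1.51 TPM over young, 0.99 to 2.64 TPM over aged and 1.29 to 4.05 TPM over treated libraries. Treated 5 at 4.05 TPM and treated 2 at 3.29 TPM were its 2 highest libraries, and aged 5 at 2.64 TPM came next. Csf3r averaged 1.20 ± 0.340, 1.63 ± 0.726 and 2.66 ± 1.05 TPM in young, aged and treated livers (SD, n = 5 each), and its largest log2 difference was 0.70 between treated and young (limma adjusted p = 0.110). Cxcr2, the chemokine receptor, was at most 0.57 TPM, in treated 5, and its range was 0.02 to 0.30 TPM over young libraries, 0.05 to 0.28 TPM over aged and 0.15 to 0.57 TPM over treated ones, so that the groups overlapped. No Cxcr2 difference passed the test, with adjusted p from 0.508 to 1.

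Among secondary granule genes, Camp was 0.56, 0.25, 0.08, 0 and 0 TPM in young libraries 1 to 5 and 0.50, 0.16, 0.07, 0.31 and 0.15 TPM in aged ones. It was 0.17, 3.39, 1.08, 0.66 and 1.90 TPM in treated libraries 1 to 5. Treated 2 to 5 were above all 10 control libraries, and treated 1 lay inside the control range. The Camp log2 difference between treated and aged was 0.84 ± 0.278 (SE, limma adjusted p = 0.785). Ngp ranged from 0 to 1.05 TPM over young, 0.24 to 1.75 TPM over aged and 0.46 to 4.22 TPM over treated libraries, with its 2 highest values in treated 2 and treated 5. Its log2 difference was 0.65 between aged and young (adjusted p = 0.626) and 1.03 between treated and young (adjusted p = 0.111).

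The primary granule genes were near 0 in most libraries. Mpo was 0.02, 0.02, 0.10, 0 and 0.02 TPM in young libraries 1 to 5 and 0.24, 0.20, 0.22, 0.02 and 0.64 TPM in aged ones. It was 0.37, 1.26, 0.13, 0.26 and 1.02 TPM in treated libraries 1 to 5. All 5 treated libraries were above all 5 young ones, and aged and young overlapped through aged 4. Mpo was thus the 1 member of 9 with no overlap between treated and young, where 2.29% of the 27110 genes were higher in every treated than in every young library. No member had every aged library above every young one (1.8% of all genes did) or every treated library above every aged one (0.302%). The Mpo log2 difference of 0.59 between treated and young had limma adjusted p = 0.170.

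Elane, the elastase gene, was 0.32, 0.06, 0.17, 0 and 0.54 TPM in young and 0.35, 0.16, 0.21, 0.11 and 0.51 TPM in aged libraries 1 to 5. It was 0, 1.74, 0.25, 0.06 and 1.66 TPM in treated libraries 1 to 5. Treated 2 and treated 5 alone stood above the controls, while treated 1 and treated 4 lay below every aged library. No Elane difference was called, and the smallest limma adjusted p was 0.587. The plot of TPM by library shows this split for each member.

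**Figure D1:**
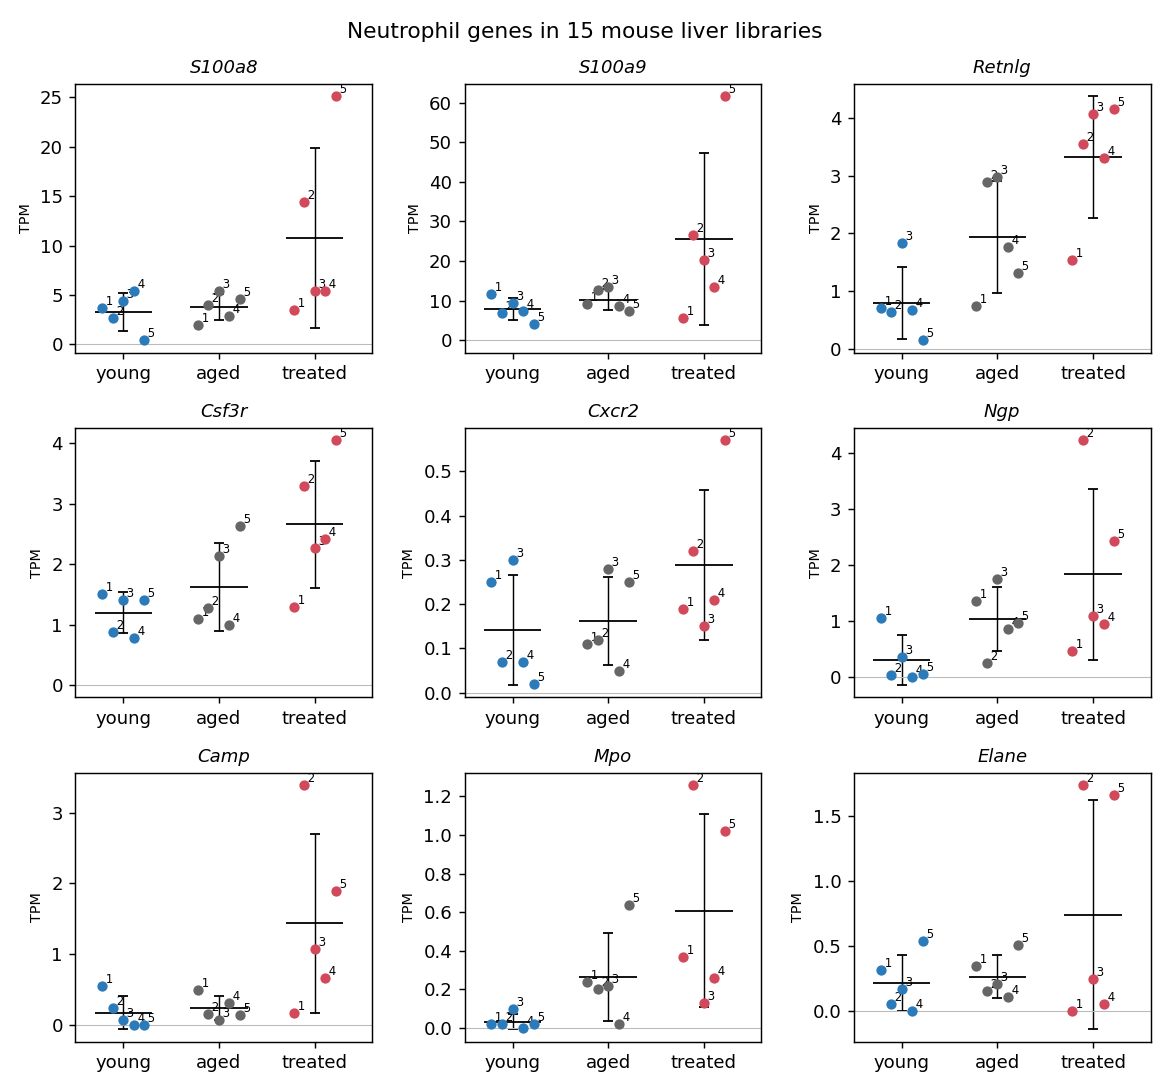
TPM of the 9 neutrophil genes in each library, 1 panel a gene, by group on the horizontal axis; numbered points are replicate numbers and bars show the mean ± SD of 5 libraries. Treated 2 and treated 5 hold the 2 highest values in 8 of the 9 panels, with S100a9 reaching 61.69 TPM in treated 5, and the groups overlap in every panel except treated against young for Mpo.

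Over the members as a group, the mean TPM was higher in aged than in young livers for 9 of 9, higher in treated than in aged for 9 of 9, and higher in treated than in young for 9 of 9. In the fit on all 27110 genes above 0, 52.3%, 52.8% and 58.4% of genes had a higher mean in those comparisons, in that order. Under quantile normalization, Cxcr2 and Elane had log2 differences of −0.03 and −0.0005 between aged and young. The comparisons share libraries, so these counts are not independent of each other. The median log2 difference of the 9 members was 0.26 between aged and young, 0.47 between treated and aged and 0.92 between treated and young. The medians over all 27110 genes, many of them near 0 TPM, were 0.0085, 0.0057 and 0.018. Over the 12168 genes averaging 1 TPM or more they were 0.045, −0.0005 and 0.061. The 5 members among those genes had medians of 0.37, 0.58 and 1.25.

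Between aged and young livers, 0 of the 5 members tested by limma were called, where 1.08% of all genes tested were, and 1 of 5 (Retnlg) was at an unadjusted p under 0.05, against 8.72% of all genes. Between treated and aged livers, 0 of 5 were called against 0.00822% of all genes, and 2 of 5 (S100a8 and Retnlg) were at an unadjusted p under 0.05, against 4.41% of all genes. Between treated and young livers, 1 of 5 was called against 2.91% of all genes (Retnlg). Of the 5, Ngp averaged 0.665 TPM over the 10 control libraries and passed the filter only through the treated group. In the fit on all 27110 genes, 0 of the 9 members were called by limma in any comparison, where 0.339%, 0.00369% and 0.693% of all genes were called in the same order, and 1, 1 and 7 of the 9 were at an unadjusted p under 0.05, where 6.39%, 4.55% and 12.5% of all genes were. The plot of log2 differences gives each member's value with its error.

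**Figure D2:**
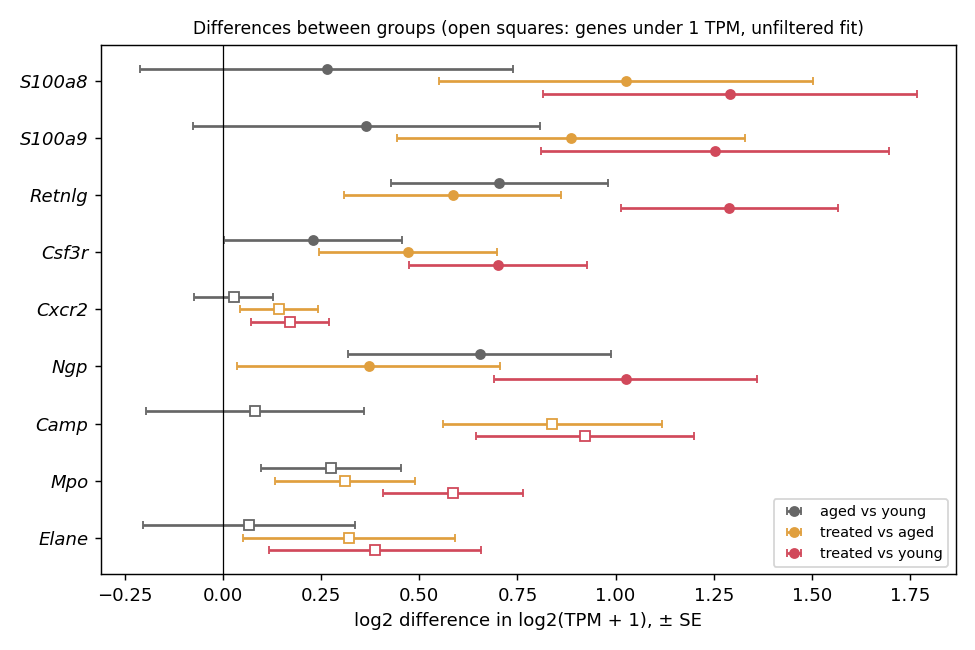
Difference of each member on the log2(TPM + 1) scale, aged minus young, treated minus aged and treated minus young; points are limma estimates with standard errors, and open squares are genes under a mean of 1 TPM, from the fit on all genes. All estimates lie above 0, from 0.03 for Cxcr2 between aged and young to 1.29 for S100a8 and Retnlg between treated and young.

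The members moved together from library to library. The 36 pairs of members had Pearson r from 0.331 to 0.884 over the 15 libraries, with a median of 0.740, on log2(TPM + 1) values that share the same library and normalization; r is given as a description only. S100a8 and S100a9 stood at r = 0.884 and Spearman rho = 0.715, and at r = 0.719 without treated 5 and young 5. Mpo and Elane stood at r = 0.816 and rho = 0.434, and at r = 0.221 without treated 2 and treated 5, so their relation rests on those libraries.

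Treated 5 was the highest of all 15 libraries for S100a8, S100a9, Retnlg, Csf3r and Cxcr2, and treated 2 was the highest for Ngp, Camp, Mpo and Elane. For Elane (1.74 and 1.66 TPM) and Mpo (1.26 and 1.02 TPM) the values of treated 2 and treated 5 were close. Other granule genes went both ways. Prtn3 and Ctsg were among those higher in treated 5, and Ltf, Fcnb and Pglyrp1 among those higher in treated 2. Treated 1 was the lowest of the treated libraries for 7 members and treated 3 for the other 2. Summed over the 9 members, the level was 6.82 to 19.91 TPM in young, 15.44 to 26.62 TPM in aged, and 13.12, 58.83, 34.66, 26.82 and 102.62 TPM in treated libraries 1 to 5. Treated 1 was thus below every aged library in the sum, and treated 2 to 5 were above every aged library. Young 4 had 4 members listed at 0 (Ngp, Camp, Mpo and Elane).

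The mean of treated 2 and treated 5 was 44.2 TPM for S100a9 against 13.1 TPM in the other 3 treated libraries, and 1.70 against 0.103 TPM for Elane. For Retnlg the same means were 3.86 and 2.97 TPM, the smallest such gap by ratio among the members. These libraries were singled out after their values were seen, and the values are a description. Without treated 2 and treated 5, the treated minus aged log2 difference was 0.30 for S100a8, 0.20 for S100a9, 0.37 for Camp and 0.45 for Retnlg, and it was −0.12 for Ngp and −0.20 for Elane. Retnlg between treated and young was then 1.15 with limma adjusted p = 0.187, on 3 treated libraries.

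**Figure D3:**
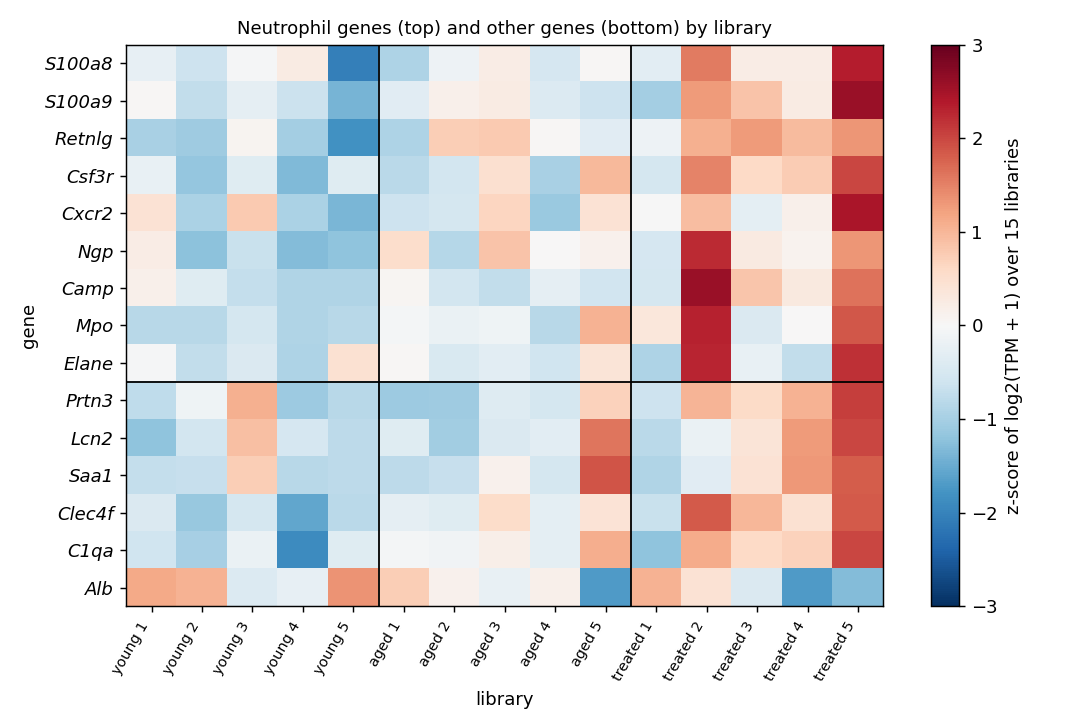
Values of the 9 members and of 6 other genes (Prtn3, Lcn2, Saa1, Clec4f, C1qa and Alb, chosen after values were seen) across the 15 libraries, each row centred and divided by its SD over libraries on the log2(TPM + 1) scale, with colours running from −3 to 3. Treated 2 and treated 5 are above the mean of all libraries for all 9 members, and Clec4f, the Kupffer cell marker, is high in the same libraries.

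The other genes of the neutrophil programme came from lists of granule, receptor, oxidase, ligand and related genes, 97 in all, of which 93 were in the matrix and 49 were tested. Between aged and young livers 1 of 49 was called, against 1.08% of all genes: Serpinb1a, an inhibitor of neutrophil serine proteases that other cells also express. Serpinb1a rose from 8.03 ± 2.51 TPM in young to 49.2 ± 16.2 TPM in aged livers (SD, n = 5 each), a log2 difference of 2.46 (limma adjusted p = 0.0155), and was 28.8 ± 21.4 TPM in treated livers (SD, n = 5). Without young 3 its adjusted p was 0.0530. At an unadjusted limma p under 0.05, 20 of the 49 were higher and 0 lower in aged than in young livers. Of all genes, 8.72% were under that p in either direction. Between treated and aged livers 0 of 49 were called by limma, with 3 higher and 1 lower at an unadjusted p under 0.05, where 4.41% of all genes were.

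Between treated and young livers 6 of 49 were called, all higher in treated, against 2.18% of all genes called higher. In the fit on all 27110 genes 2 of the 86 list genes above 0 were called (Ncf4 and Wfdc21), against 0.693% of all genes. In that fit 37 of the 86 were at an unadjusted limma p under 0.05, against 12.5% of all genes. Ppbp passed the filter only through the treated group, with a mean of 0.616 TPM over the 10 control libraries. Ncf4, a cytosolic subunit of the NADPH oxidase, rose from 1.84 ± 0.768 to 8.11 ± 3.23 TPM (SD, n = 5 each; log2 difference 1.64, adjusted p = 0.0124). Cybb, the membrane subunit of the same enzyme, rose by a log2 difference of 1.17 (adjusted p = 0.0439), and the other 4 oxidase genes tested had differences that were not called. Fcgr4, a receptor for the constant part of IgG, rose by 1.62 (adjusted p = 0.0375). Wfdc17 and Wfdc21, genes of the whey acidic protein family, rose by 1.48 (adjusted p = 0.0324) and 1.01 (adjusted p = 0.0148). Ppbp, a chemokine that signals through Cxcr2 and is stored in platelets, rose by 1.31 (adjusted p = 0.0273) from 0.240 to 2.48 TPM. Macrophages also express Ncf4, Cybb, Fcgr4 and Wfdc17. Wfdc21 averaged 779, 1184 and 1524 TPM in young, aged and treated livers, far above every member. Which cells of the liver gave its signal was not tested. Leaving out 1 library ended the call of Cybb in 11 of 15 cases and of Fcgr4 in 9, with adjusted p up to 0.129 (without treated 5) and 0.109 (without treated 2). It ended the call of Wfdc17 without young 2, 3 or 5 or treated 2 or 3 (adjusted p up to 0.0922) and of Ppbp without young 1, 3 or 5 or treated 2 or 5 (up to 0.0838). Without a filter on low values, the calls of Cybb (adjusted p = 0.117), Fcgr4 (0.0981), Wfdc17 (0.0911) and Ppbp (0.0641) were lost, and so they were when only young and treated libraries entered the fit (0.0519 to 0.0986). Cybb was also lost with a pseudocount of 5 (0.0554), a filter at 0.1 TPM (0.0598) and without trend and robust estimation (0.0504), and Ppbp with a pseudocount of 5 (0.0707) and under quantile normalization (0.0867). Ncf4 and Wfdc21 kept their calls in all of these settings and in 15 of 15 cases of leaving out 1 library. All 6 calls were lost without treated 2 and treated 5 together (adjusted p from 0.153 to 0.407).

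Some other genes of the lists were near or at 0, and those named here were chosen after their values were seen. Ly6g, the surface protein used to define mouse neutrophils, was listed at 0 in all 5 young libraries, at 0, 0.06, 0.06, 0 and 0 TPM in aged and at 0.06, 0.06, 0.44, 0.06 and 0.47 TPM in treated libraries 1 to 5. Its highest values lay in treated 5 and treated 3, and it was under 1 TPM everywhere. Csf3, the gene for G-CSF, Cxcl3 and Il17a were listed at 0 in all 15 libraries. Cxcl1, a chemokine gene of the same list, averaged 4.25 ± 3.55, 4.43 ± 4.56 and 13.3 ± 8.08 TPM in young, aged and treated livers (SD, n = 5 each). Its log2 difference between treated and aged was 1.39 (limma unadjusted p = 0.0325, adjusted p = 0.925), and no difference of it was called. Lcn2, a secondary granule gene that hepatocytes also make in the acute phase, was 117 ± 169, 271 ± 476 and 599 ± 808 TPM in young, aged and treated livers (SD, n = 5 each), and no difference of it was called.

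Of the lists' other abundant genes, none was called by limma in any comparison. Hp, the haptoglobin gene, which hepatocytes express strongly, was 4659 ± 2028, 4877 ± 3648 and 5514 ± 3787 TPM in young, aged and treated livers (SD, n = 5 each). Pglyrp1, a peptidoglycan-binding granule protein, was 0.506 ± 0.290, 2.22 ± 1.78 and 2.47 ± 1.32 TPM in that order, with adjusted p = 0.0898 between treated and young. Spi1, which encodes the transcription factor PU.1, was 7.11 ± 2.71, 15.04 ± 7.12 and 17.8 ± 8.53 TPM (adjusted p = 0.0891 between treated and young). Cebpa and Cebpb, which encode C/EBP factors and are expressed by hepatocytes too, had adjusted p of 0.464 and 0.649 between treated and young. Bsg, a receptor for S100a9, S100a10 and S100a11 had adjusted p of 0.447, 0.692 and 0.166.

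Prtn3, the primary granule protease proteinase 3, was singled out after its values were seen. It was 2.10, 6.80, 41.52, 0.95 and 1.86 TPM in young and 0.98, 1.03, 4.27, 3.41 and 23.52 TPM in aged libraries 1 to 5. In treated libraries 1 to 5 it was 2.85, 38.91, 19.62, 40.04 and 177.13 TPM. Prtn3 thus reached far higher levels than Elane, the elastase of the same granule, and was high in young 3 and aged 5, where Elane was 0.17 and 0.51 TPM. Across 15 libraries Prtn3 stood at r = 0.865 and rho = 0.775 with Lcn2 and at r = 0.572 and rho = 0.281 with Elane, as a description.

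Markers of several other cell types also differed between the groups, not all in the way the members did, and their part in the results was not tested. The Kupffer cell list, 9 of 9 genes in the matrix with none at 0 throughout a group, summed to 231 to 663 TPM over young, 609 to 1072 TPM over aged and 432 to 2288 TPM over treated libraries, lowest of the treated in treated 1 and highest in treated 5. Of its 9 genes, 2 (Clec4f and Vsig4) were called higher in treated than in young livers by limma, against 2.18% of all genes. The others were not called. Among the genes tested in other marker lists, 2 of 5 monocyte and 3 of 8 B and plasma cell genes were also called higher there. So were 1 of 12 acute phase genes and the 1 eosinophil gene tested. None of the 5 T and NK cell or 2 platelet genes tested was called. Clec4f was 91.16, 271.57, 188.56, 148.97 and 271.56 TPM in treated libraries 1 to 5, and treated differed from young by 1.11 on the log2 scale (limma adjusted p = 0.0264; the call was lost without young 2 or 5 or treated 2, 3 or 5, with adjusted p up to 0.0840, with no filter (0.0845), with only those groups in the fit (0.0561) and without treated 2 and 5 together (0.303)). The monocyte list, 9 of 9 genes in the matrix, summed to 47.1 to 141 TPM over young, 200 to 637 TPM over aged and 148 to 860 TPM over treated libraries. Most of its highest sums was 1 gene, Lyz2, at 561 TPM in aged 5 and 749 TPM in treated 5. The acute phase list, 12 of 12 genes in the matrix, summed to 10094 to 31509, 17619 to 48262 and 17693 to 62169 TPM in the same order. The T and NK cell list (8 of 8 genes) summed to 4.93 to 5.98, 4.82 to 53.6 and 5.35 to 30.5 TPM, and the B and plasma cell list (8 of 8 genes) to 12.2 to 25.2, 430 to 5027 and 354 to 5192 TPM, in that order. The B and plasma cell sum was highest in treated 4, not in treated 5. Its genes had a median log2 difference of 2.21 between aged and young and −0.30 between treated and aged livers. The medians of the 5 members tested in the same fit were 0.37 and 0.58 in those comparisons. The platelet list (6 of 6 genes) summed to 3.71 to 7.66, 3.76 to 8.38 and 3.01 to 20.6 TPM, and its highest value was in treated 5, where Pf4 was 16.01 TPM and Ppbp 5.74 TPM. Across 15 libraries the mean z-score of the 5 members at or over 1 TPM was set against these sums, as a description. It stood at r = 0.860 and rho = 0.882 with the summed Kupffer list and 0.764 and 0.871 with the monocyte list. With the T and NK cell list it stood at 0.711 and 0.807, with the acute phase list at 0.665 and 0.661. For the B and plasma cell list the values were 0.537 and 0.600. Hepatocyte markers ran the other way. Their sum was 92075 to 133802 TPM over young, 67803 to 101962 TPM over aged and 67220 to 105703 TPM over treated libraries, lowest in treated 5. This sum stood at r = −0.654 and rho = −0.693 with the z-score of those 5 members. All 8 hepatocyte markers had lower means in treated than in young livers, of which 1, Cyp2e1, fell in the limma test (log2 difference −1.32, adjusted p = 0.00976). The red blood cell list did not follow that z-score, at r = 0.061 and rho = −0.007. It had 7 of 8 genes in the matrix and summed to 1183 to 3479, 1449 to 2862 and 1171 to 3046 TPM.

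The gene most like the members was Clec4f, by Pearson r with the mean z-score of the 5 members at or over 1 TPM across 15 libraries, compared over 12163 other tested genes. Its r was 0.945 and its rho 0.925, and its r was 0.881 without treated 2 and treated 5. The next 9 were Pilra, Clec4a3, Ctla2b, Tifa, Plac8, Klra2, Ly86, Gm5150 and Cd300c2, with r from 0.907 to 0.937. The number of genes with r over 0.8 was 203, so many genes followed the members' pattern. Within this order the differences between neighbours were small, and all the values share the same libraries.

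**Figure D4:**
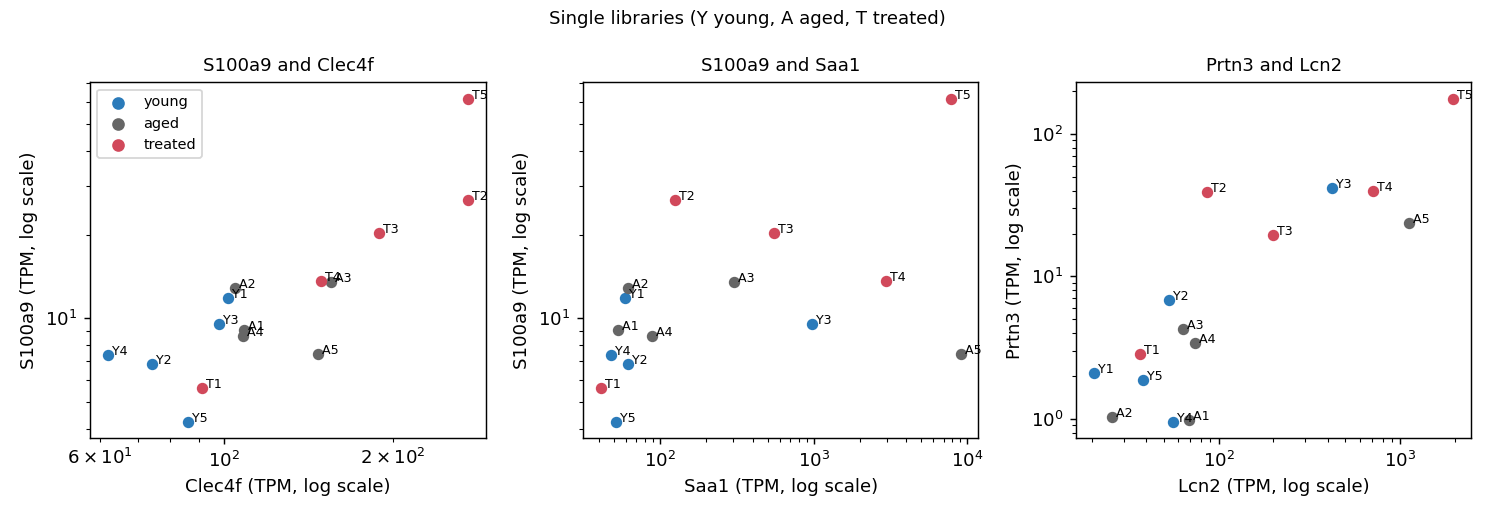
Plots of 1 gene against another, 1 point a library, coloured by group, on log axes in TPM, with Saa1 chosen after its values were seen: S100a9 against Clec4f, S100a9 against Saa1, an acute phase gene, and Prtn3 against Lcn2. Treated 2 and treated 5 are at the top right in the plot of S100a9 against Clec4f, with Clec4f at 271.57 and 271.56 TPM, while Saa1 was 124.90 TPM in treated 2 and 7813.71 TPM in treated 5.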

How the data were processed

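RNA from mouse liver was sequenced in 15 libraries of 3 groups, 5 each. The authors deposited 1 matrix of TPM per gene. Per the submitters' processing notes, fastp, HISAT and RSEM and the build GRCm39 were used; versions and settings are not given in the sources used here. Each library's TPM sum to between 999999 and 1000001. The matrix also holds 3 columns of group means, which were not used. Groups came from the labels.

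From the TPM, log2(TPM + 1) was computed, genes averaging 1 TPM or more over 15 libraries were kept, and limma 3.58.1 in R 4.3.3, with a trend in the variances and robust estimation, fitted 1 model with 3 group means. Benjamini-Hochberg adjustment ran over all genes tested, and genes were called under 0.05. The same fit on 27110 genes gave the members under 1 TPM. The step was tested on simulated data, with levels above those of most members and planted differences larger than any member's. That test therefore does not cover genes as low as most members. Alternatives changed the pseudocount, filter, scaling, weights, samples and replicate block, 28 planned and 1 added after seeing the data.

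The members, the gene lists and the cell type markers were chosen with earlier results of these data known. Named genes were all members, per neutrophil list every gene called and otherwise up to 3 of the highest mean, and the 10 genes most like the members. Any other gene named, cell type markers included, was chosen after its values were seen. Promoters came from RefSeq, build GRCm38.p6, by gene symbol.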

Additional observations from a re-analysis of the deposited data

Results flagged for a closer look

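In each group of 5 libraries, a library was picked out when it lay far from the other 4 by Dixon's rule. This met 8 of the 81 groups looked at, and 1 of the 27 groups of members. For values that follow a normal curve, chance picks out about 1 in 20 groups. The rule was run on TPM, with many values near 0, and Prtn3 and Ly6g were added after their values were seen. The count of 8 therefore cannot be set against that rate. Among the members, Mpo was 0.10 TPM in young 3, against 0 to 0.02 TPM in the other young libraries.

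Young 3 also stood apart for Lcn2, at 419.13 TPM against 20.56 to 55.99 TPM, and for Prtn3, at 41.52 TPM against 0.95 to 6.80 TPM. Aged 5 stood apart for 4 genes: Hp, the haptoglobin gene, at 11392 TPM against 2912 to 3460 TPM, Lcn2 at 1122.31 TPM against 25.98 to 73.98 TPM, Ncf4 at 14.68 TPM against 3.78 to 5.62 TPM and Prtn3 at 23.52 TPM against 0.98 to 4.27 TPM. Treated 5 stood apart for Prtn3, at 177.13 TPM against 2.85 to 40.04 TPM.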

How the results depend on the processing

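The number of members called was 0 under all 29 alternatives for aged against young and for treated against aged. For treated against young it was 1, and it became 0 with no filter and without treated 2 and treated 5 together (chosen after seeing the data). It was also 0 with a filter of 5 TPM, but Retnlg averaged 2.02 TPM, so that setting did not test Retnlg. The number was 4 when libraries were weighted, 4 when young 4, aged 5 and treated 1 were all left out, and 0 to 4 when leaving out 1 library. It was 0 without young 5 and without treated 5, and 4 without treated 1. The replicate block left it at 1 (Retnlg adjusted p = 0.0103) and ended the call of Cybb (0.0611). It gave 373 genes called over the whole table, treated vs young, against 354. No label says that the numbers pair the libraries. After group means were taken off, same-numbered libraries correlated at −0.249 to 0.309 (median 0.021, against −0.019 for other numbers). Of the 15 libraries, 4 correlated best with their own number. These values cannot exclude a factor shared by number. Small differences changed sign, and the cause was not tested. Between aged and young, Cxcr2 was −0.034 under quantile normalization, −0.011 when libraries were weighted, −0.0215 with those 3 libraries left out, and −0.011 to 0.076 when leaving out 1 library. Elane was −0.0005 under quantile normalization, −0.065 without those 3 libraries and −0.0001 to 0.16 when leaving out 1. S100a8 was −0.10 to 0.45 when leaving out 1. Without treated 2 and treated 5, Ngp and Elane were −0.12 and −0.20 between treated and aged, and Elane was −0.13 between treated and young. Whole-table calls higher and lower were 113 and 19 between aged and young, but 78 and 41 under quantile normalization and 97 and 38 with median-ratio scaling; between treated and young they were 265 and 89, but 252 and 322, and 341 and 313 with median-ratio scaling. Over all alternatives the whole-table count ran from 76 to 244 between aged and young (132 as reported), 0 to 3 between treated and aged (1) and 97 to 1538 between treated and young (354). Depth is unknown, and values near 0 for Camp, Cxcr2, Mpo and Elane limit every statement on them.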
